A study of Bos taurus with 81 samples.

Results

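Bovine embryos with 4 cells (4C) were compared with embryos with 8 cells (8C) for the histone marks H3K4me3, H3K27me3 and H3K9me3. The comparison rests on 12 of the series' 81 libraries, which are the 2 libraries of each mark at each of the 2 stages, taken by the mark and stage in their titles. Each library is a list of peaks called by the authors, and the peaks on the 29 autosomes were used. The autosomes were divided into 2487935 bins of 1 kb for H3K4me3 and 497587 bins of 5 kb for H3K27me3 and H3K9me3, and a bin was called marked where peaks covered at least 50% of it. A gained bin was marked in both 8C libraries and in neither 4C library, and a lost bin the reverse. A kept bin was marked in all 4 libraries, and any other pattern with at least 1 marked library was called mixed.

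H3K4me3 is a methyl mark laid down mainly at active and poised promoters. In oocytes and early embryos of mammals it can also form broad domains away from promoters. H3K27me3 is written by the Polycomb complex PRC2 over silent developmental genes. H3K9me3 is the mark of constitutive heterochromatin and of silenced repeats, and it is bound by HP1 proteins. In cattle the main wave of embryonic genome activation falls around the 8-cell stage, so the interval from 4C to 8C runs into it.

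The embryos were made by fertilising in vitro matured oocytes from slaughterhouse ovaries with frozen semen. Cumulus cells were shaken off by vortexing and the zona pellucida was digested with pronase. The 4C embryos were collected 44 h after insemination and the 8C embryos 56 h after it, and neither group received an inhibitor. Marks were mapped by CUT&Tag, in which an antibody brings a transposase to the mark so that nearby DNA is cut and tagged. Each library pooled blastomeres of many embryos, so a bin marked in fewer cells and a bin with less mark per cell cannot be told apart. Libraries of other groups were read at the bins called from 4C and 8C. These were germinal vesicle oocytes taken before in vitro maturation (GV), 2-cell embryos (2C, 32 h), 8-cell embryos cultured with 50 μg/ml of the transcription inhibitor α-amanitin (8A, 56 h), morulae (MO, 122 h) and blastocysts (BL, 172 h), each with 2 libraries per mark. H3K27ac, a mark of active promoters and enhancers, was read in its own 4C and 8C libraries.

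Sequencing depth was unknown because the lists give no library totals, so a longer list can reflect more reads or more mark. H3K4me3 peaks covered 94.7 and 109.98 Mb of autosomes in the 4C replicates, and 68.6 and 112 Mb in the 8C replicates. The H3K4me3 library of 8C replicate 1 stood apart, with 73056 autosomal peaks against 91628 to 123857 in the other 3 H3K4me3 lists. H3K27me3 covered 157 and 143 Mb at 4C and 137 and 139.7 Mb at 8C. H3K9me3 covered 163 and 177 Mb at 4C and 168 and 167 Mb at 8C. Peak edges of H3K27me3 and H3K9me3 lay on a 200 bp grid and those of H3K4me3 on a 50 bp grid, so widths were compared within a mark. The labels do not say that replicates came from separate embryo pools, so p-values measure the spread between these libraries, which may be technical.

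**Figure D1:**
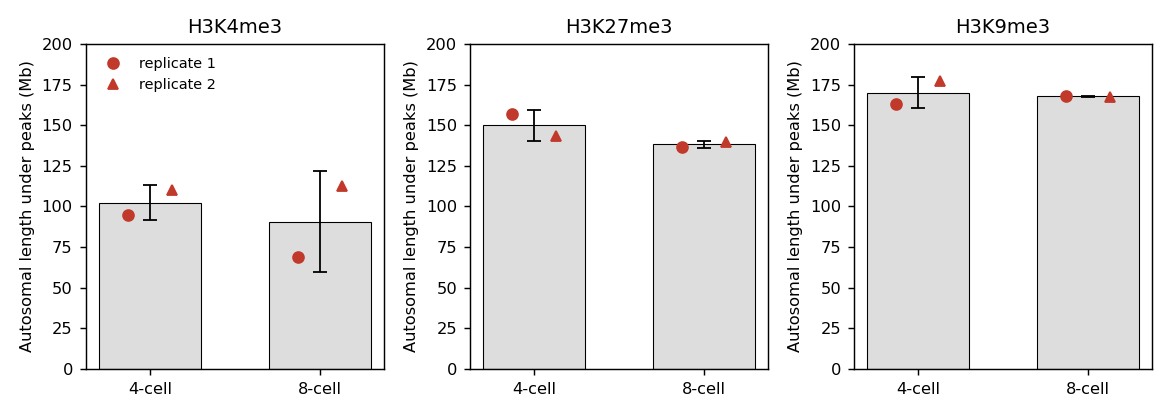
Length of the autosomes under peaks (Mb) in each 4-cell and 8-cell library, 1 panel per mark; bars are means of 2 libraries, error bars are SD, circles are replicate 1 and triangles replicate 2. The 8-cell H3K4me3 libraries lie far apart at 68.6 and 112 Mb, and the H3K27me3 libraries at 8-cell (137 and 139.7 Mb) lie below both 4-cell libraries (157 and 143 Mb).

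By mean covered length, no mark appeared or disappeared between the stages. Because depth was unknown, covered length cannot show whether the amount of a mark changed. The covered length of H3K4me3 was 102 Mb ± 10.8 (SD, n = 2) at 4C and 90.6 Mb ± 31.0 at 8C, a log2 ratio of -0.22 (exact two-sided permutation test, p = 1). H3K27me3 covered 150.02 Mb ± 9.58 at 4C and 138 Mb ± 2.04 at 8C, a log2 ratio of -0.12 (exact two-sided permutation test, p = 0.333, the smallest p that 2 against 2 libraries allow). H3K9me3 covered 170.1 Mb ± 9.75 and 168 Mb ± 0.517, a log2 ratio of -0.02 (exact two-sided permutation test, p = 1). The H3K4me3 ratio turned to 0.14 without 8C replicate 1, and the H3K9me3 ratio to 0.04 without 4C replicate 2, so neither had a direction that all libraries carried.

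Whether the marked bins themselves moved was asked with the Jaccard index, the number of bins marked in both lists over the number marked in either. For H3K27me3 the index was 0.624 between the 4C replicates and 0.651 between the 8C replicates. The 4 pairs of a 4C with an 8C library gave 0.557 to 0.573, below both replicate pairs. For H3K9me3 the replicate indices were 0.665 and 0.688, and the pairs across stages gave 0.653 to 0.668, so the highest pair across stages was as similar as the 4C replicates. The H3K4me3 replicates shared 0.570 at 4C and 0.515 at 8C, and the pairs across stages 0.438 to 0.546. The 4C and 8C replicates 2 of H3K4me3 were thus more alike than the 8C replicates were. The mean index within stages exceeded that between stages by 0.0490 for H3K4me3, 0.0733 for H3K27me3 and 0.0184 for H3K9me3. Summed over the 3 marks the separation was 0.141 (exact one-sided permutation test over 27 combinations of groupings, p = 0.037, the smallest it can give). This joint test does not say which mark separated.

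**Figure D2:**
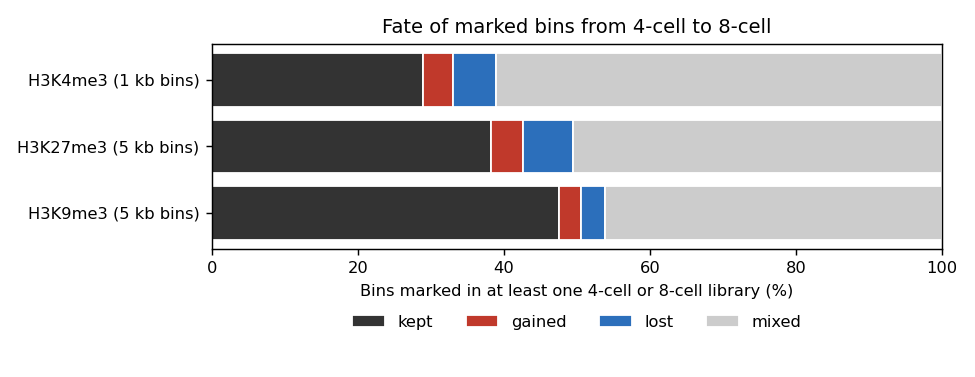
Share of the bins marked in at least one 4-cell or 8-cell library that were kept, gained, lost or mixed, 1 bar per mark. Kept bins made up 28.9% for H3K4me3, 38.2% for H3K27me3 and 47.5% for H3K9me3, and mixed bins, in which replicates of a stage differ, made up 61.0%, 50.6% and 46.2%.

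H3K4me3 was the mark with the smallest kept share. Of the 75622 bins marked in both 4C libraries, 47067 (62.2%) were marked in both 8C libraries too, and 9698 (12.8%) were lost. Gained bins numbered 6713. Lost bins were 0.39% and gained bins 0.27% of all 1 kb bins on the autosomes. These counts ask for agreement of all 4 libraries, and the replicates of a stage also differed. At 4C, 20204 bins were marked in replicate 1 alone and 36856 in replicate 2 alone, and at 8C the counts were 5327 and 54149. Replicate 2 contained 92.2% of the bins of 8C replicate 1, while replicate 1 contained 53.9% of those of replicate 2. The short 8C list was therefore largely a subset of the long one.

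Which side had more H3K4me3 bins depended on how bins were counted. Lost bins made up the larger group by the rule above. With at least 80% of a bin covered, 6295 bins were gained and 3565 lost, and in 5 kb bins 1236 were gained and 813 lost. A bin counted as unmarked where no base was covered gave 1816 gained and 4690 lost. Calls from any covered base gave 7962 gained and 21456 lost. Leaving out 8C replicate 1 gave 27447 gained and 10817 lost bins, and leaving out 8C replicate 2 gave 9519 and 27436. Without 4C replicate 1 or 2 the gained bins were 10121 or 12753 and the lost bins 29295 or 20634.

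A check in libraries that a call had not used gave the same uneven picture. Of the bins marked in 8C replicate 1 but not in a given 4C library, 8C replicate 2 held 77.6% or 75.3%, depending on the 4C library. The other 4C library held 42.1% or 29.2%. Bins picked with 8C replicate 2 were found at rates of 29.1% and 28.0% in 8C replicate 1, and 37.4% and 24.2% in the unused 4C library. A gain picked from the long list alone was thus found in the other 8C library about as often as in the other 4C library. Of the losses judged against 8C replicate 1, the unused 4C library held 62.8% and 47.8%, and 8C replicate 2 held 52.8% and 48.9%, so with 1 of the 4C libraries they were more common in the other 8C library. Of the losses judged against 8C replicate 2, the unused 4C library held 48.6% and 34.6%, and 8C replicate 1 held 7.35% and 6.40%.

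Gained and lost H3K4me3 bins differed in how often they lay beside a kept bin. Of the gained bins 49.3% lay directly beside a kept bin, and of the lost bins 15.1%. Among the bins unmarked in both 4C libraries, 11.4% of those beside a kept bin were gained and 0.146% of those elsewhere. Among the bins marked in both 4C libraries, 3.66% of those beside a kept bin were lost and 23.2% of the others. Kept neighbours were called from the same lists, and a peak can span adjacent bins. These rates therefore follow in part from the rule and are description only. The 4C libraries covered on average 17.4% and 19.0% of a gained bin, and 27.1% of gained bins had no covered base at 4C. Lost bins had 6.71% and 14.3% cover left in the 8C libraries, and 48.4% of them had none. Of 3631 domains with at least 4 adjacent bins marked in both 4C libraries, 1 had no bin marked in either 8C library. Over domains of any length this was so for 6179 of 41354 (14.9%).

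The gained and the lost H3K4me3 bins differed in stages that did not enter the calls. Gained bins were marked in 23.5% and 31.2% of cases in the GV libraries and 25.7% and 29.97% in the 2C libraries. All bins were marked in 5.82% and 7.47% at GV and 4.76% and 4.72% at 2C, so gained bins were above them before 4C too. The gained bins were marked in 44.6% and 47.5% at MO and 41.4% and 42.6% at BL. Kept bins were marked in 82.3% and 87.3% at GV, 46.8% and 47.9% at MO, and 43.1% and 45.5% at BL. After the 8-cell stage the gained bins were thus marked about as often as the kept bins, although before the 4-cell stage they had been marked far less often. Lost bins were marked in 69.5% and 80.1% at GV and 69.4% and 65.7% at 2C, and in 3.03% and 3.46% at MO and 4.10% and 4.64% at BL. Over all bins 1.796% and 1.99% were marked at MO and 1.85% and 2.02% at BL. The lost bins thus stayed above all bins at those stages, but by a much smaller margin than at GV and 2C. In embryos grown with α-amanitin, 13.7% and 9.13% of gained bins, 16.3% and 11.2% of lost bins and 81.0% and 74.0% of kept bins were marked. The α-amanitin embryos thus held either changed set less often than the kept bins. All bins were marked less often still, in 2.36% and 1.98% of cases.

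Of the gained H3K4me3 bins 2956 (44.0%) were marked in no GV or 2C library, and 2312 (34.4%) in all MO and BL libraries. Of the lost bins 3766 (38.8%) were marked in all GV and 2C libraries. For kept bins these shares were 0.746%, 38.9% and 73.8%, in the same order. Of all bins 91.5% were marked in neither GV library and 94.0% in neither 2C library. Gained bins were thus unmarked at GV and 2C more often than kept bins and less often than all bins. Both libraries of a stage marked 4.79% of all bins at GV, 3.44% at 2C, 1.65% at MO and 1.73% at BL. The share of gained bins marked at MO rested on 8C replicate 1. The mean over the MO libraries was 46.1%, and it was 19.5% when gains were called without that library. For lost bins it was 3.25%, and 6.53% without 8C replicate 2.

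**Figure D3:**
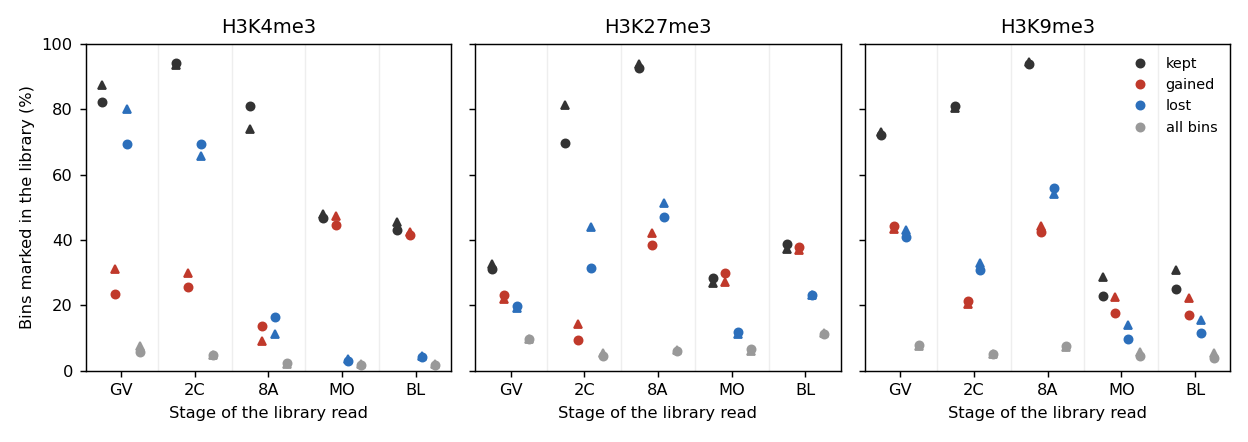
Percent of kept, gained and lost bins that were marked in libraries outside the comparison: oocytes (GV), 2-cell embryos (2C), α-amanitin 8-cell embryos (8A), morulae (MO) and blastocysts (BL); circles are replicate 1, triangles replicate 2, grey points all autosomal bins. Gained H3K4me3 bins reach the level of kept bins at MO (44.6% and 47.5% against 46.8% and 47.9%), where lost bins are at 3.03% and 3.46%.

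H3K27ac separated the gained H3K4me3 bins from the lost ones as well. At gained bins H3K27ac was marked in 6.18% and 6.26% of cases in the 4C libraries and 49.2% and 47.2% in the 8C libraries. At kept bins the values were 27.4% and 27.1% at 4C and 41.2% and 39.7% at 8C. At lost bins they were 11.1% and 13.2% at 4C and 8.61% and 8.25% at 8C, and over all 1 kb bins 1.26% and 1.36% against 3.88% and 3.84%. By this rule H3K27ac was higher in both 8C libraries at gained and kept bins, and lower in both at lost bins (exact two-sided permutation test, p = 0.333 for each, the smallest possible). When any H3K27ac cover counted, the kept bins went the other way, from 53.6% and 51.1% at 4C to 47.8% and 46.0% at 8C. Gained bins then stood at 32.8% and 30.2% at 4C and 63.04% and 62.6% at 8C, and lost bins at 29.3% and 30.9% against 11.6% and 11.1%. Of the gained H3K4me3 bins 2235 (33.3%) also gained H3K27ac by the same rule, against 1.84% of all bins.

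The longest run of gained H3K4me3 bins was 6 kb long, on chromosome 18 of the ARS-UCD1.2 build (chr18:64839001-64845000). H3K4me3 covered 0% of it in both 4C libraries and 81.7% and 88.3% in the 8C libraries, and H3K27ac 11.7% and 5% against 84.2% and 85.8%. MO and BL libraries had no H3K4me3 there. A run of 5 kb on chromosome 7 (chr7:13585001-13590000) differed in that respect. Its H3K4me3 cover was 5% and 2% at 4C and 91% in both 8C libraries, and it remained at 98% and 100% at MO and 98% and 99% at BL. H3K27ac there was at 0% in both 4C libraries and at 95% and 88% at 8C. The other named gained run, 5 kb on chromosome 4 (chr4:93441001-93446000), was covered to 8% and 9% at 4C and 96% and 92% at 8C, and in the BL libraries to 0%.

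Among lost H3K4me3 runs the longest had 5 kb (chr18:44133001-44138000), covered to 84% and 82% at 4C and 0% and 16% at 8C. It carried both repressive marks at both stages, with H3K27me3 at 80% and 100% at 4C and 68% and 84% at 8C, and H3K9me3 at 100% and 80% against 88% and 100%. GV and 2C libraries covered it with H3K4me3 to 74% to 89%, and MO and BL libraries to 0%. The next lost runs, of 4 kb, were chr10:85812001-85816000 and chr13:54689001-54693000, both also covered at GV and 2C. The longest kept run spanned 31 kb (chr29:50049001-50080000), with 95.7% and 96.3% cover at 4C and 93.4% and 98.4% at 8C. In the MO libraries 0% and 2.42% of it was covered and in the BL libraries 0%. The second longest kept run, 24 kb on chromosome 4 (chr4:241001-265000), was covered by H3K27me3 to 100% in all 4 libraries and had no H3K4me3 at MO or BL.

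H3K27me3 domains mostly stayed in place. Of 23688 bins of 5 kb marked in both 4C libraries, 17270 (72.9%) were kept and 3066 (12.9%) lost, and 1997 bins were gained. Lost bins were 0.616% and gained bins 0.401% of all bins. Bins that 1 replicate of a stage held alone numbered 8458 and 5796 for the 4C replicates and 5754 and 6285 for the 8C replicates. In lists trimmed to one covered length, by dropping the lowest-scoring peaks of the longer lists, 2406 bins were gained and 2239 lost, so the excess of losses did not hold at equal length.

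The H3K27me3 calls recurred in libraries that had not been used to make them. For gains picked with 1 library of each stage, the unused 8C library held 48.5% to 52.9% over the 4 ways to pick, and the unused 4C library 28.5% to 39.9%. For losses the unused 4C library held 46.3% to 55.1% and the unused 8C library 25.2% to 28.3%. In each of the 4 picks the change was therefore found more often in the unused library of the stage it was called in than in that of the other stage. Leaving out 8C replicate 1 or 2 raised the gained bins to 4686 or 4594 and the lost bins to 4614 or 4870. Without 4C replicate 1 or 2 they were 4009 or 3187 gained and 6333 or 7450 lost.

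Changed H3K27me3 bins lay mostly in short runs. Single bins made up 82.6% of the gained runs and 84.0% of the lost runs. No base was covered at 4C in 57.2% of gained bins, and none at 8C in 70.9% of lost bins. Of the gained bins 33.1% lay beside a kept bin, and of the lost bins 18.7%. Among bins unmarked in both 4C libraries, 10.9% of those beside a kept bin were gained and 0.295% of those elsewhere. As for H3K4me3, the neighbours came from the same lists, so these rates follow in part from the rule. Of 1770 domains with at least 4 adjacent bins marked in both 4C libraries, 6 had no bin marked in either 8C library. Of 1804 such domains at 8C, 5 had none marked in either 4C library.

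The gained and lost H3K27me3 bins also differed in stages that did not enter the calls. Gained bins were marked in 9.56% and 14.2% of cases at 2C, 29.9% and 27.1% at MO and 37.8% and 36.9% at BL. Lost bins were marked in 31.5% and 44.1% at 2C, 11.9% and 11.2% at MO and 23.2% and 23.3% at BL. Over all bins the shares were 4.49% and 5.39% at 2C, 6.70% and 6.09% at MO and 11.2% and 11.6% at BL. Lost bins thus stayed above all bins at MO and BL, and the share of all bins also rose from MO to BL. Kept bins stood at 28.4% and 27.01% at MO and 38.7% and 37.2% at BL, so gained bins were again marked as often as kept bins after the 8-cell stage. GV oocytes held gained bins (23.1% and 21.8%) and lost bins (19.7% and 19.2%) at like levels, against 9.78% and 9.80% of all bins. In α-amanitin embryos 38.4% and 42.1% of gained bins and 47.1% and 51.2% of lost bins were marked, against 6.02% and 6.34% of all bins. Those embryos thus held gained bins more often than 2C embryos did, and lost bins more often than MO embryos.

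The longest gained H3K27me3 run was 55 kb on chromosome 7 (chr7:109150001-109205000). Its cover was 0% in both 4C libraries and 85.1% and 91.6% at 8C, 83.3% and 62.5% at MO and 63.3% and 53.5% at BL. H3K9me3 was already present there at 4C, with 50.2% and 55.6% against 75.6% and 73.5% at 8C. The second, 35 kb on chromosome 9 (chr9:97350001-97385000), went from 0% and 6.29% to 96.6% and 80.6% and was at 0% in MO and BL. The third, 30 kb on chromosome 1 (chr1:150780001-150810000), had 0% and 8.67% at 4C, 86.7% and 90% at 8C and 48.7% and 46.7% at BL. All 3 had 0% H3K27me3 in the GV and 2C libraries.

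The longest lost H3K27me3 run covered 30 kb on chromosome 19 (chr19:22610001-22640000), with 83.3% and 78% at 4C and 0% and 4% at 8C. H3K9me3 stayed there at 65.3% and 74% at 4C and 63.3% and 49.3% at 8C. The α-amanitin embryos still had H3K27me3 over 41.3% and 68% of it. The next lost runs were 25 kb on chromosome 7 (chr7:5605001-5630000) and 20 kb on chromosome 8 (chr8:74675001-74695000), both at 0% in both 8C libraries and at 0% in MO and BL. The longest kept run was 205 kb on chromosome 5 (chr5:106520001-106725000), covered to between 94.3% and 100% in the 4 libraries and to 98.7% and 96.1% at BL. The next, 190 kb on chromosome 18 (chr18:8050001-8240000), was covered to 96.5% to 99.8% at both stages and to 0% at MO and BL.

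H3K9me3 was the most constant mark of the 3 by kept share. Of 27871 bins marked in both 4C libraries, 23017 (82.6%) were kept and 1588 (5.70%) lost, and 1480 were gained. Lost bins were 0.319% and gained bins 0.297% of all bins. Replicates differed too, in that 5695 and 8319 bins were held by 1 of the 4C replicates alone and 6524 and 6174 by 1 of the 8C replicates alone. The order of gained and lost counts depended on the setting, with 1365 gained and 1309 lost at 80% cover and 1517 and 1366 in trimmed lists. With 4C replicate 1 left out, 2885 bins were gained and 5159 lost, and with 8C replicate 2 left out 4268 and 3274. With 4C replicate 2 or 8C replicate 1 left out the gained bins were 3643 or 3804 and the lost bins 4143 or 3168.

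Of H3K9me3 gains picked with 1 library of each stage, the unused 8C library held 43.8% to 49.8% and the unused 4C library 35.2% to 48.0%. Of losses, the unused 4C library held 39.7% to 49.3% and the unused 8C library 35.3% to 37.7%. The unused libraries therefore set the stages apart by little for this mark. Gained bins lay beside a kept bin in 39.1% of cases and lost bins in 28.9%. No base was covered at 4C in 50.2% of gained bins, and none at 8C in 59.5% of lost bins. Of 2304 domains with at least 4 adjacent bins marked in both 4C libraries, 3 had no bin marked in either 8C library.

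At other stages the gained and lost H3K9me3 bins were read in the same way. Gained bins were marked in 44.3% and 43.4% of cases at GV and lost bins in 41.1% and 43.1%. At 2C the values were 21.2% and 20.5% for gained and 30.7% and 32.9% for lost bins. At MO they were 17.6% and 22.5% for gained, 9.76% and 14.1% for lost and 22.8% and 28.6% for kept bins. At BL the gained bins were at 17.2% and 22.2% and the lost bins at 11.5% and 15.5%. Over all bins 7.75% and 7.65% were marked at GV and 5.24% and 5.22% at 2C. At MO 4.51% and 5.81% of all bins were marked, and at BL 4.05% and 5.49%. Gained bins were thus less often marked than lost bins at 2C and more often at MO and BL, in both libraries each. In α-amanitin embryos 42.5% and 44.3% of gained, 55.9% and 54.2% of lost and 93.95% and 94.4% of kept bins were marked. The shares over all bins there were 7.48% and 7.41%.

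The longest gained H3K9me3 run, 30 kb on chromosome 2 (chr2:190001-220000), was covered to 2.67% and 0% at 4C and 96% and 100% at 8C. It stayed at 100% in all MO and BL libraries. The α-amanitin embryos had it at 92% and 86%, and the 2C embryos at 80% and 69.3%. H3K27me3 covered it to 96% and 100% at 4C and 100% in both 8C libraries, and H3K4me3 to 61% to 93.7% over both stages. The other named gains, 25 kb on chromosome 10 (chr10:47325001-47350000) and 20 kb on chromosome 5 (chr5:49225001-49245000), had 0% in MO and BL. There H3K27me3 appeared together with H3K9me3, from 0% in both 4C libraries to 48% and 38.4% on chromosome 10 and 46% in both 8C libraries on chromosome 5. The longest lost runs were 25 kb on chromosome 20 (chr20:56360001-56385000), with 74.4% and 88.8% at 4C and 0% in both 8C libraries, and 20 kb each at chr19:12950001-12970000 and chr23:9325001-9345000. All 3 lost runs had 0% at MO and BL. The longest kept run, 215 kb on chromosome 5 (chr5:106520001-106735000), overlapped the longest kept H3K27me3 run and was covered to 97.5% to 99.6% in the 4 libraries. On chromosome 12 a run of 210 kb (chr12:86295001-86505000) was kept with 96.2% to 97.8% cover and carried H3K27me3 over 91.4% to 96.5%.

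H3K27me3 and H3K9me3 occupied largely the same bins at both stages, and bins changed in both marks more often went the same way than opposite ways. In 15564 bins both marks were kept, which is 90.1% of the kept H3K27me3 bins and 67.6% of the kept H3K9me3 bins. Both marks were gained in 143 bins, 7.16% of the gained H3K27me3 and 9.66% of the gained H3K9me3 bins. Both were lost in 253 bins, 8.25% and 15.9%. A larger part of the changed H3K27me3 bins lay where H3K9me3 was kept, 588 of the gained (29.4%) and 785 of the lost bins (25.6%). Opposite changes were fewer, with 17 bins that gained H3K27me3 and lost H3K9me3 and 35 bins the other way round. Over all bins H3K9me3 was kept in 4.63% and H3K27me3 in 3.47%. The gained and lost shares over all bins were those given above, 0.297% and 0.319% for H3K9me3.

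The libraries of the second mark had not been used to call the first, so its level at the changed bins was read in each. At bins that gained H3K27me3, H3K9me3 was marked in 49.2% and 57.7% of cases in the 4C libraries and 71.0% and 66.5% in the 8C libraries. At bins that lost H3K27me3, H3K9me3 was marked in 60.1% and 62.5% at 4C and 45.5% and 47.5% at 8C. At kept H3K27me3 bins it stood at 95.7% and 95.8% at 4C and 96.2% and 95.3% at 8C. The 4C and 8C libraries did not overlap at gained or at lost bins, and they overlapped at kept bins and over all bins (6.75% and 7.27% against 6.95% and 6.88%).

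Read the other way, H3K27me3 was marked at gained H3K9me3 bins in 25.5% and 20.9% of cases at 4C and 37.2% and 39.4% at 8C. At lost H3K9me3 bins it was marked in 45.7% and 39.2% at 4C and 18.6% and 17.9% at 8C. At kept H3K9me3 bins it was at 88.6% and 84.5% at 4C and 84.8% and 86.3% at 8C. Over all bins H3K27me3 was marked in 6.46% and 5.93% at 4C and 5.67% and 5.78% at 8C. It was thus lower in both 8C libraries over all bins too. For the mean of the second mark, the difference of 8C minus 4C was 15.3 percentage points for H3K9me3 at H3K27me3 gains and -14.8 at losses. For H3K27me3 it was 15.0 at H3K9me3 gains and -24.2 at losses. Each gave p = 0.333 by an exact two-sided permutation test, the smallest 2 against 2 libraries allow. These differences kept their sign in every alternative run on them. The difference at H3K9me3 gains shrank to 6.59 points without 8C replicate 1 and 7.74 without 8C replicate 2. At H3K27me3 losses the difference in H3K9me3 was -9.27 at 80% cover. At H3K9me3 losses that in H3K27me3 was -13.2 without 4C replicate 1 and -15.0 at 80% cover.

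**Figure D4:**
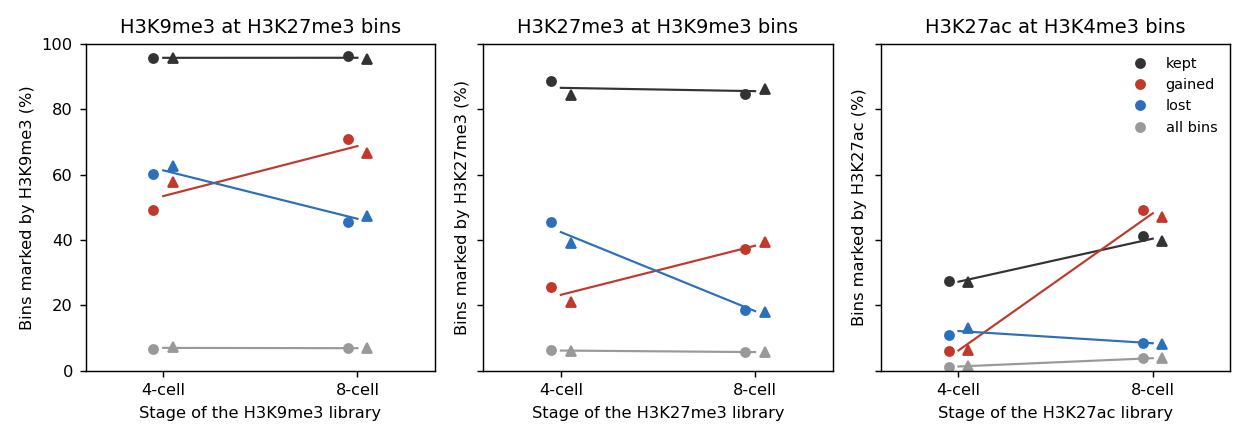
Percent of kept, gained and lost bins that carried a second mark in its own 4-cell and 8-cell libraries: H3K9me3 at H3K27me3 bins, H3K27me3 at H3K9me3 bins and H3K27ac at H3K4me3 bins; circles are replicate 1, triangles replicate 2, lines join the means, grey is all bins. At H3K27me3 gains H3K9me3 lies at 49.2% and 57.7% at 4-cell and 71.0% and 66.5% at 8-cell, and at H3K27me3 losses at 60.1% and 62.5% against 45.5% and 47.5%.

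Bins called with both repressive marks at 4C were mostly called so again at 8C, and bins called with 1 of them alone mostly were not. At 8C the state was unclear, because replicates differed, for 16.3% of bins with both marks at 4C. It was unclear for 37.2% of those with H3K27me3 alone and 49.5% of those with H3K9me3 alone. How often these states differ between replicates of 1 stage was not counted, so change and uncertain calls cannot be told apart. Of 19943 bins with both marks in both 4C libraries, 78.0% had both in both 8C libraries and 1.27% had neither in any. Of 1362 bins with H3K27me3 alone at 4C, 10.6% were in that state at 8C, 5.36% had both marks and 44.3% had neither. Of 2928 bins with H3K9me3 alone, 12.2% stayed so, 20.1% had both marks and 17.6% neither. Most of the rest had a mark in 1 replicate of 8C alone, and 3.94% of the bins with both marks at 4C had H3K9me3 alone at 8C. Among the 19695 bins with both marks at 8C, 2.99% had been H3K9me3 alone and 0.371% H3K27me3 alone at 4C. The longest region where both marks were gained was 15 kb on chromosome 7 (chr7:53315001-53330000). There H3K27me3 cover was 6.67% and 9.33% at 4C and 88% and 100% at 8C, and H3K9me3 cover 6.67% and 9.33% against 78.7% and 89.3%. Both marks were lost over 10 kb on chromosome 5 (chr5:74925001-74935000), from 84% and 72% for H3K27me3 and 94% and 100% for H3K9me3 to 0%. Exchanges of one mark for the other had a longest run of 5 kb in each direction. At chr2:117580001-117585000 H3K27me3 went from 0% and 36% to 76% in both 8C libraries, and H3K9me3 from 88% and 100% to 0%. At chr1:128390001-128395000 H3K27me3 went from 100% to 36% and 20%, and H3K9me3 from 32% and 36% to 76% and 100%.

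Changed H3K4me3 bins differed from this pattern. At lost H3K4me3 bins H3K27me3 was marked in 18.5% and 16.1% of cases at 4C and 16.8% and 16.9% at 8C. H3K9me3 was marked there in 17.6% and 17.7% at 4C and 18.4% and 17.3% at 8C, so the stages overlapped for both marks. Gained H3K4me3 bins carried H3K27me3 in 4.63% and 4.32% of cases at 4C and 4.72% and 4.74% at 8C, and H3K9me3 in 4.54% and 4.72% at 4C and 5.35% and 5.05% at 8C. Both 8C libraries were above both 4C libraries there, by less than 1 percentage point in the means. Over all 1 kb bins H3K27me3 was marked in 6.30% and 5.76% at 4C and 5.50% and 5.61% at 8C. In 5 kb bins each combined change of H3K4me3 with a repressive mark held 2 to 10 bins, and in 1 kb bins 9 to 121. Of lost H3K4me3 bins 0.990% gained H3K27me3 and 1.25% lost it, against 0.399% and 0.614% of all 1 kb bins. For gained H3K4me3 bins the shares were 0.447% and 0.358%. With H3K9me3 they were 0.722% and 0.577% at lost and 0.372% and 0.134% at gained bins, against 0.302% and 0.326% of all bins. Bins of 1 kb with H3K4me3 and H3K27me3 in both 4C libraries numbered 8848, or 11.7% of the H3K4me3 bins. Of these, 46.9% had both marks at 8C, 1025 (11.6%) lost H3K4me3 with H3K27me3 kept, and 278 (3.14%) lost H3K27me3 with H3K4me3 kept. With H3K9me3 the numbers were 9862 bins, 48.4%, 1213 bins (12.3%) and 147 bins (1.49%).

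The repressive marks did not change alike along the chromosomes. In the last 2 Mb of the autosomes, the side that lies away from the centromere in cattle, H3K27me3 was marked in 28.7% and 26.5% of bins at 4C and 29.8% and 30.3% at 8C. In the remainder it was marked in 5.93% and 5.43% at 4C and 5.10% and 5.19% at 8C. The last 2 Mb thus had more H3K27me3 in both 8C libraries, and the remainder less. Gained H3K27me3 bins outnumbered lost ones in the last 2 Mb, 233 (2.01% of the bins there) against 101 (0.871%), the opposite order to that over the autosomes. This order held in trimmed lists (297 and 84), at 80% cover (203 and 80) and without each library, where it was closest without 4C replicate 2 (361 and 288). Over all autosomes, gains also outnumbered losses in trimmed lists (2406 and 2239) and without 8C replicate 1 (4686 and 4614). In those settings the order over the autosomes was therefore not opposite to that in the last 2 Mb.

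Chromosome by chromosome, both 8C libraries lay above both 4C libraries in the last 2 Mb of 11 of 29 autosomes (37.9%) and below them in 4 (13.8%) for H3K27me3. Over the remainder both 8C libraries lay below both 4C libraries on 17 autosomes (58.6%) and above them on 3 (10.3%). H3K9me3 was marked in 31.0% and 32.1% of the bins of the last 2 Mb at 4C and 33.8% and 32.04% at 8C, which overlap. Its 8C libraries lay above the 4C libraries there on 9 autosomes (31%) and below on 2 (6.9%). Over the remainder they lay above on 4 (13.8%) and below on 7 (24.1%). Gained H3K9me3 bins in the last 2 Mb numbered 146 and lost ones 69. Without 4C replicate 1 or 2 they were 279 and 229 or 313 and 177, and without 8C replicate 1 or 2 they were 273 and 206 or 377 and 159. Chromosomes 25, 18 and 19, named here because they had the highest shares of lost H3K27me3 bins (1.901%, 1.81% and 1.73%), had gained shares of 0.331%, 0.456% and 0.370%. On chromosome 25 H3K27me3 was marked in 15.6% and 14.2% of bins at 4C and in 11.4% in both 8C libraries. At 4C chromosome 18 had 13.3% and 12.7% of its bins marked and chromosome 19 had 14.9% and 13.4%. These chromosomes thus also had the highest marked shares in both 4C libraries, and the lost shares were taken over all their bins.

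**Figure D5:**
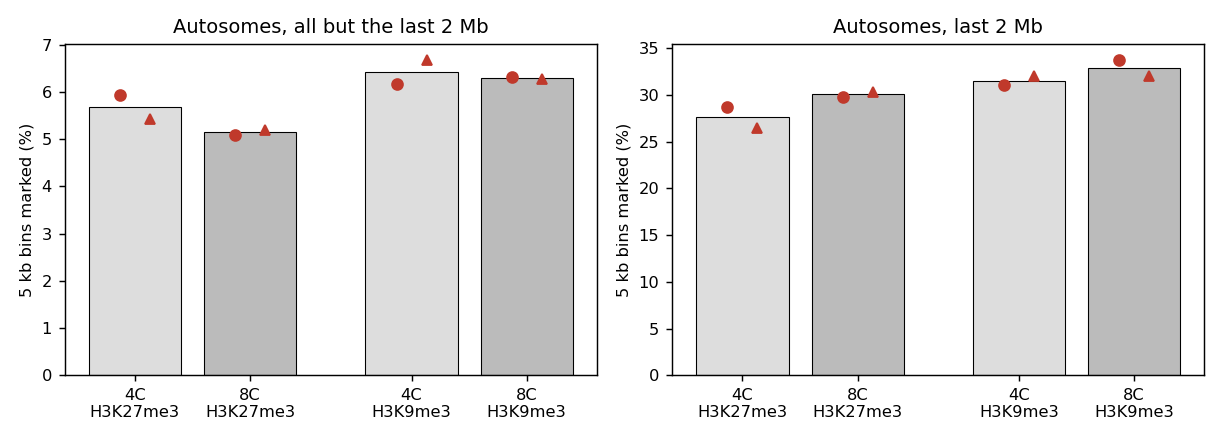
Percent of 5 kb bins marked by H3K27me3 and H3K9me3 in each 4-cell (4C) and 8-cell (8C) library, outside the last 2 Mb of the autosomes (left) and within it (right); bars are means, circles replicate 1, triangles replicate 2, and the vertical scales differ. For H3K27me3 both 8-cell libraries lie below both 4-cell libraries outside the last 2 Mb (5.10% and 5.19% against 5.93% and 5.43%) and above them within it (29.8% and 30.3% against 28.7% and 26.5%).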

How the data were processed

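Peak lists of CUT&Tag libraries were analysed, 46 of the 81 in the series, of which 12 made the comparison and the others were read at its bins. SICER, BWA 0.7.9a, SAMtools 1.9, Picard 2.26.10, Trim Galore 0.4.0 and cutadapt 1.8.3, with the ARS-UCD1.2 build, are listed per the submitters' processing notes. The deposited lists are named for epic2, so which caller made them was not settled. Peak cutoffs and control libraries were not given in the sources used here. Each peak carries a whole-number score, deposited by the authors, whose meaning the lists do not state. It was used to trim lists to one covered length per mark, as an alternative. Peaks were called per library by the authors.

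Peak ends were taken as the last covered base. Bins, classes, the Jaccard index and exact permutation tests were computed with Python 3.11.15 and NumPy 2.4.6, and the calls were tested on simulated lists. Classes carry no test, and their counts stand beside the share of all autosomal bins. Marks were tested jointly because the exact two-sided p of 2 libraries against 2 is at least 0.333. Regions named are the 3 longest gained and lost runs and the 2 longest kept runs per mark, and the longest run of each paired change of H3K27me3 and H3K9me3. Alternatives were other covers and bin sizes, trimmed lists, joined peaks, X and unplaced scaffolds, and leaving out each library. No gene was assigned to a region, because the gene table at hand was of ARS-UCD2.0, and the labelled stage was not checked against marker genes. The marks, stages and measures were chosen with earlier results of these data known. The alternatives on the morula, on the second mark and on the last 2 Mb, the counts per chromosome and the chromosomes named were chosen after seeing the data.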

Additional observations from a re-analysis of the deposited data

How the results depend on the processing

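The separation of the stages summed over the 3 marks stayed positive under the 7 alternatives run, from 0.123 at 80% cover to 0.178 with any covered base, and was 0.128 with the replicate block. Any covered base gave 21456 lost H3K4me3 and 4699 lost H3K27me3 bins, 422 bins that lost both repressive marks and 29 that gained H3K27me3 and lost H3K9me3. At 80% cover lost bins were 3565 for H3K4me3 and 1980 for H3K27me3, and 114 bins lost both repressive marks. Counting a bin as unmarked only where no base was covered gave 1816 gained and 4690 lost H3K4me3 bins, 1143 gained H3K27me3 bins, and 743 gained and 945 lost H3K9me3 bins. With bin sizes exchanged, 1236 and 813 bins were gained and lost for H3K4me3 (5 kb), 9917 and 15287 for H3K27me3 and 7515 and 8102 for H3K9me3 (1 kb). In trimmed lists 166 bins lost both repressive marks and 29 gained H3K27me3 and lost H3K9me3. With X and unplaced scaffolds the H3K9me3 covered length ratio was 0.026 on the log2 scale. Leaving out each library gave 9519 to 27447 gained and 10817 to 29295 lost H3K4me3 bins, 3187 to 4686 and 4614 to 7450 H3K27me3 bins, and 2885 to 4268 and 3168 to 5159 H3K9me3 bins. A call from 3 libraries asks less agreement by construction. Log2 ratios of covered length ranged from -0.57 to 0.14 for H3K4me3, -0.18 to -0.05 for H3K27me3 and -0.077 to 0.040 for H3K9me3. Pairing libraries by replicate number left the ratios at -0.22, -0.12 and -0.02. The numbers were not shown to pair libraries, since deviations of same-numbered 4C and 8C libraries correlated across bins at 0.111, -0.0127 and 0.0229 for H3K4me3, H3K27me3 and H3K9me3. Depth is unknown, so how far it limits the counts could not be given.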

Other observations

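Outside the autosomes the H3K27me3 and H3K9me3 lists held more peaks at 8C. The H3K27me3 libraries had 1272 and 1669 such peaks at 4C and 2046 and 1961 at 8C, and the H3K9me3 libraries 1679 and 1297 against 2366 and 2260. Peaks on X and unplaced scaffolds made up 7.68% and 9.44% of the H3K27me3 peaks in the 4C libraries and 12.8% and 13.6% in the 8C libraries. For H3K9me3 the shares were 10.2% and 9.26% at 4C and 14.4% and 15.9% at 8C, with no overlap of the stages for either mark. Each gives the smallest p that 2 against 2 libraries allow (exact two-sided permutation test, p = 0.333). The H3K4me3 shares were 4.08% and 3.82% against 5.44% and 5.08%, but the peak numbers overlapped, at 4799 and 4913 against 4206 and 4905, and it was the autosomal peaks that were fewer at 8C. With these sequences included, gained H3K9me3 bins numbered 2162 against 1480 on the autosomes, and lost bins 1630 against 1588. Gained H3K27me3 bins numbered 2373 against 1997, and lost bins 3126 against 3066. Among the changed bins that X and unplaced scaffolds added, gains thus outnumbered losses for both marks. Kept and mixed bins there were not counted.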
